A study of Mus musculus with 15 samples.

Results

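The S100 genes encode small calcium-binding proteins with paired EF-hand motifs that act as dimers. Inside the cell they bind annexins, myosin and other partners when calcium rises, and some members are released and act on receptors of neighbouring cells. Most S100 genes of the mouse lie in a single cluster, interleaved with the genes of the cornified envelope of stratified epithelium, and many are known from epithelia.

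The 9 genes described here are S100a4, S100a6, S100a8, S100a9, S100a10, S100a11, S100a13, S100a14 and S100a16, of 19938 genes with a probe set of their own on the array. They were taken by name, each with the probe set assigned to it alone. S100a11 has a pair of such probe sets, of which the one with the higher mean over all arrays was used. Expression was measured in mouse ventral prostate epithelial cells of the FVB strain, with 3 arrays for each of 5 groups, 15 in all. Untransduced primary cultures served as control (transduction none). The other 4 groups held cells of the same kind transformed by the c-myc gene (Myc), the neuT gene (NeuT), the ha-ras gene (Ras) or the v-src gene (Src), described by the submitters as stable lines with 3 lines for each oncogene. NeuT encodes an activated Erbb2 receptor, Ras is a small GTPase, Src a tyrosine kinase and Myc a transcription factor.

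All values are log2 expression as normalized by the authors, and a level is comparable between arrays for the same gene but not between genes. Array medians over all probe sets lay between 6.19 and 6.32, and the median of all gene values was 6.47. Levels under 6.47 may lie near background, which was not measured here, so the size of a change to or from such a level is unsure. Precision is limited by having 3 arrays per group. No label says whether the 3 control arrays were separate cultures or animals, so p-values measure the spread between these arrays, which may be technical. The lines grew in DMEM with serum, whereas the control cells, in a medium made for primary prostate cultures, met serum only overnight before they were harvested, and this difference cannot be told apart from transformation. As bulk samples, the arrays cannot tell fewer cells of a type from less RNA per cell.

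The labels were checked against the transduced genes. Erbb2 was at 9.50 ± 0.38 (SD, n = 3) in the arrays labelled NeuT and 7.80 ± 0.03 in control. Myc was at 8.78 ± 0.17 in the arrays labelled Myc, below control at 9.70 ± 0.29, and Src was at 7.08 ± 0.02 in the arrays labelled Src and 7.04 ± 0.19 in control. Hras has no probe set of its own here. Whether these probe sets read the transduced copies was not tested. Directions for the arrays labelled Myc, Ras and Src rest on the labels, and Myc below stands for the arrays labelled Myc. Control array 3 stood apart from the other control arrays: the kidney tubule markers, 8 of 8 measured, summed to between 43.7 and 80.8 over the control arrays and to between 43.6 and 45.4 over the 12 line arrays. Its difference from the mean of control arrays 1 and 2 was -0.48 (log2) in S100a4, -0.41 in S100a16 and -0.36 in S100a14, and from -0.23 to 0.29 in the other members. Calls of members against control that change without it are given with both values, as are the gene list counts that move. Of the kidney tubule markers 0 passed in any line group, and without control array 3 1 rose in NeuT and 1 in Ras. Endothelial markers, 8 measured, summed to between 43.7 and 54.3 in control and 43.8 and 44.6 in the lines, with 0 that passed and, without control array 3, 1 that rose in Ras and 1 in Src, and 4 melanocyte and Schwann cell markers to between 22.6 and 25.2 over all arrays, with 1 that rose in Ras. Prostate epithelial identity was checked with 10 measured markers, of which the means of 10 lay above 6.47 in control and Src, 8 in Myc, 7 in NeuT and 3 in Ras.

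Against control, the largest changes among the S100 genes were the fall of S100a14 in Ras and the rises of S100a9 and S100a8 in Src and of S100a4 in Ras. A gene is said to have risen or fallen where limma's adjusted p, by Benjamini-Hochberg over all 19938 genes, was under 0.05, with no minimum fold. In the arrays labelled Myc, 2 of 9 rose and 2 fell, beside 15.9% of all genes that rose and 12.7% that fell. In NeuT 0 rose and 1 fell, beside 15.2% and 11.6% of all genes. In Ras 2 rose and 2 fell, beside 13.3% and 14.2%. In Src 3 rose and 1 fell, beside 14.2% and 12.2%. Without control array 3 the counts that rose and fell were 2 and 2 in Myc, 0 and 0 in NeuT, 2 and 2 in Ras and 3 and 2 in Src. The median log2 change of the members was -0.05, 0.01, -0.12 and 0.01 in Myc, NeuT, Ras and Src, where the medians of all genes were 0.03, 0.02, 0.02 and 0.06. The 4 contrasts share the control arrays. These shares and medians of all genes also stand beside the counts and medians of the gene and marker lists against control, where a count near its share does not set a list apart. By gene, S100a4 rose in 3 of the 4 groups, S100a8 in 2 and S100a9 and S100a13 in 1 each, while S100a16 fell in 3 and S100a9, S100a11 and S100a14 in 1 each. S100a6 and S100a10 passed in 0 of 4.

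**Figure D1:**
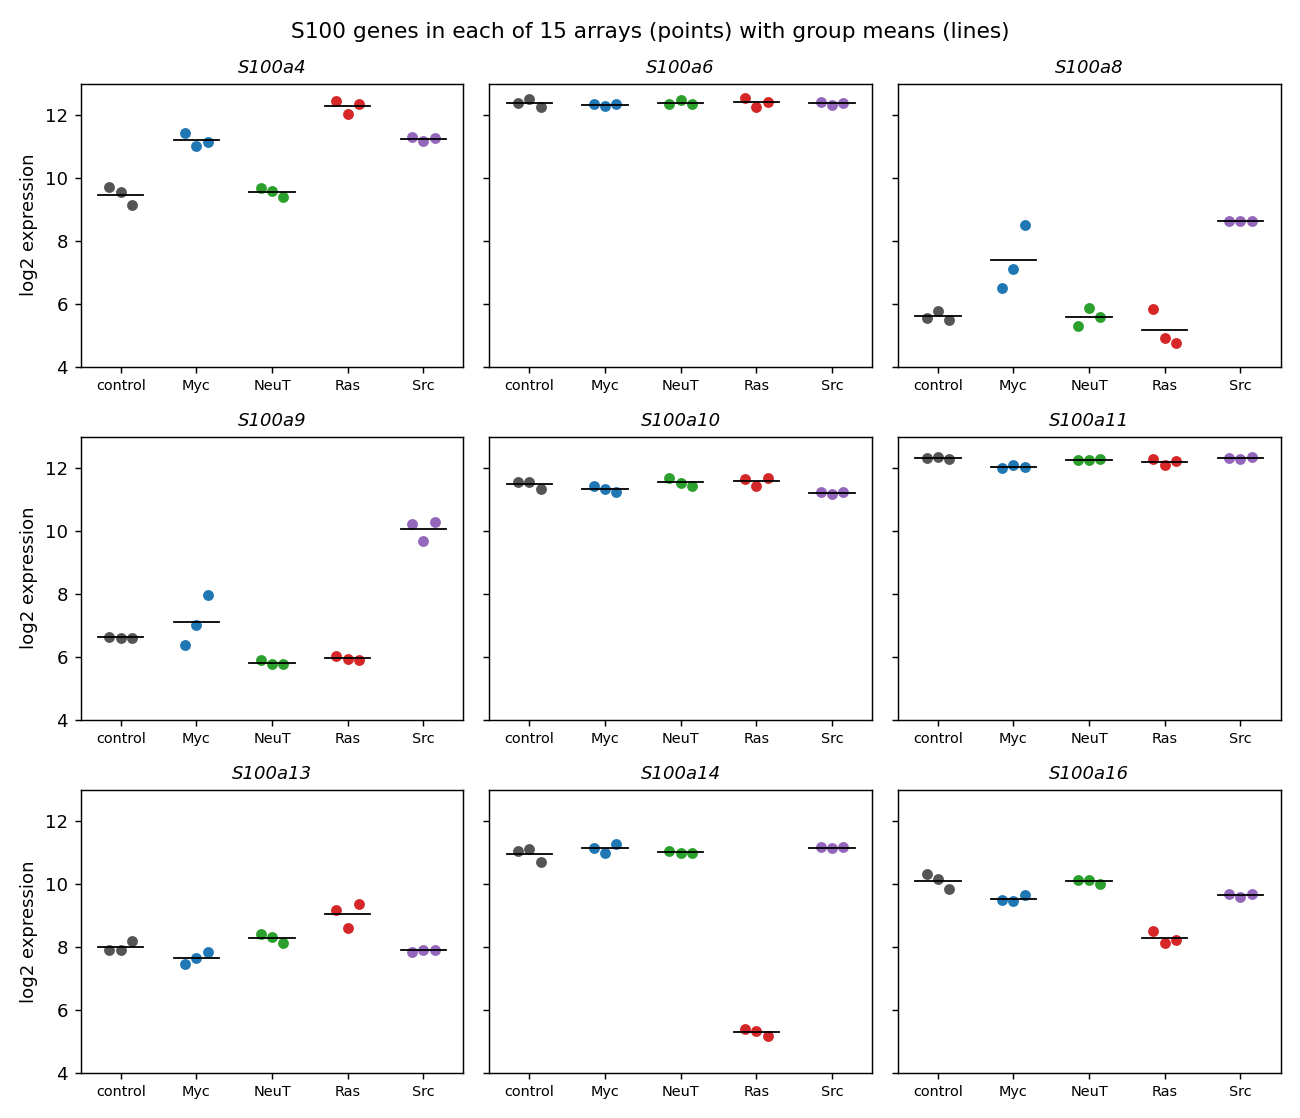
Log2 expression of each S100 gene (vertical axis) in the 3 arrays (points) of each of the 5 groups (horizontal axis), with the group mean as a line. S100a14 lies between 5.17 and 5.38 in the Ras arrays and between 10.72 and 11.27 in all others, S100a9 is highest in the Src arrays, and S100a6 is level in all groups.

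S100a4, which encodes a motility-associated S100 protein that binds non-muscle myosin and is also known as a fibroblast marker, was at 9.70, 9.55 and 9.14 in the control arrays. The arrays labelled Myc read 11.44, 11.03 and 11.13, those of NeuT 9.68, 9.60 and 9.39, those of Ras 12.46, 12.04 and 12.34, and those of Src 11.29, 11.16 and 11.27. All arrays of Myc, Ras and Src were above all those of control and NeuT, and the Ras arrays were above all others. Against control S100a4 rose in Myc (log2 fold change 1.74 ± 0.15, SE, limma adjusted p = 1.09e-06), in Src (1.78 ± 0.15, adjusted p = 1.20e-06) and in Ras (2.82 ± 0.15, adjusted p = 4.99e-09, 7.06-fold). In NeuT it was at 0.09 ± 0.15 (adjusted p = 0.74, 95% interval -0.23 to 0.42). The level was higher in Ras than in Src by 1.04 ± 0.15 (adjusted p = 1.32e-04), while Myc and Src differed by -0.04 ± 0.15 (adjusted p = 0.909). Its order over the groups was thus Ras, then Src and Myc, which did not differ beyond their spread, then NeuT and control, which did not either.

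Fibroblast markers were read beside S100a4. Of 10 measured, 0 rose and 2 fell in Myc, 0 and 2 in NeuT, 3 and 2 in Ras and 1 and 2 in Src. Summed over the 10 markers, the level lay between 61.7 and 62.8 in control, 58.1 and 58.4 in Myc, 58.5 and 59.2 in NeuT, 61.9 and 65.0 in Ras and 59.4 and 60.2 in Src. The sums in Myc and Src were below those of control. In Ras, where S100a4 was highest, the highest sum was above that of control, and the collagen and matrix genes Dcn (1.14 ± 0.27), Fbln1 (0.71 ± 0.12) and Col3a1 (0.54 ± 0.08) rose. Lower means in Ras than in control were those of Postn (4.35 against 5.75), Pdgfra (6.52 against 6.97), Col1a1 (7.05 against 7.14) and Col1a2 (6.80 against 6.89). Lum (4.26 against 4.07), Thy1 (6.11 against 6.03) and Pdgfrb (5.91 against 5.74) were higher but did not pass. The counts in Ras were 3 and 1 without control array 3, with the others as given. Their part in the S100a4 values was not tested.

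The 250 bases upstream of the annotated start of S100a4 are given because it rose in 3 of the 4 groups. They are from RefSeq, build GRCm38.p6, chr3:90603520-90603769, plus strand, with a TATAAA motif in capitals.
S100a4: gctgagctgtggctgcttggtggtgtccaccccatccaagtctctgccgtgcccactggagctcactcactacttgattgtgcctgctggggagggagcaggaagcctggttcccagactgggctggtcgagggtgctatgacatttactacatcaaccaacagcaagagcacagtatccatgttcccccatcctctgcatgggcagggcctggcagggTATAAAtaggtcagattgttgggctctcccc
The motif began 31 bases before the start. TATAAA on either strand was present in 13.6% of 32851 RefSeq promoter windows of 300 bases and in 3 of the 8 windows found for 7 members, those of S100a4, S100a8 and S100a9. A match is a description of the letters and not of a site in use. S100a10 and S100a14 had no window in the table.

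S100a8 and S100a9 encode the subunits of calprotectin, an antimicrobial metal-binding complex that is abundant in neutrophils and is induced in stressed or activated keratinocytes. S100a9 was at 6.64, 6.60 and 6.61 in the control arrays, 6.37, 7.0 and 7.98 in Myc, 5.90, 5.78 and 5.76 in NeuT, 6.04, 5.94 and 5.90 in Ras and 10.22, 9.68 and 10.28 in Src. The Src arrays were all above the 12 other arrays, and the arrays labelled Myc spanned control. Against control it rose in Src (log2 fold change 3.45 ± 0.28, adjusted p = 8.52e-07, 10.92-fold). In Myc it was at 0.50 ± 0.28 (adjusted p = 0.221), a value that became 0.87 with an adjusted p of 0.0123 without Myc array 1 and 0.07 with an adjusted p of 0.848 without Myc array 3. It fell in NeuT (-0.80 ± 0.28, adjusted p = 0.0477), to levels under 6.47. That call was lost under 15 of 23 alternatives (adjusted p from 5.22e-04 to 0.122), among them the removal of any control array or any NeuT array, and the removal of Myc array 2, any Ras array, or Src array 1 or 3. Without control array 3, S100a9 in NeuT was at -0.81 (adjusted p = 0.0708). In Ras it was at -0.65 ± 0.28 (adjusted p = 0.105), which passed when only Ras and control were fitted (adjusted p = 0.00248) and without Myc array 1 or 3 (adjusted p = 0.0296 and 0.00839).

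S100a8 was at 5.54, 5.77 and 5.49 in the control arrays, 6.51, 7.10 and 8.51 in Myc, 5.30, 5.87 and 5.57 in NeuT, 5.84, 4.91 and 4.75 in Ras and 8.64, 8.64 and 8.63 in Src. All Src and Myc arrays were above all control, NeuT and Ras arrays, and Myc array 3 came close to the Src arrays. S100a8 rose in Src (log2 fold change 3.04 ± 0.39, adjusted p = 5.46e-05, 8.20-fold) and in Myc (1.78 ± 0.39, adjusted p = 0.00272, 3.42-fold), from control levels under 6.47. In NeuT and Ras it was at -0.02 ± 0.39 (adjusted p = 0.982) and -0.43 ± 0.39 (adjusted p = 0.457). Myc was below Src by -1.26 ± 0.39 (adjusted p = 0.0343). That difference was lost under 7 of 23 alternatives (adjusted p from 5.38e-04 to 0.168), and was -0.83 (adjusted p = 0.168) without Myc array 1, -1.12 (adjusted p = 0.111) without Myc array 2 and from -1.26 to -1.27 (adjusted p from 0.0834 to 0.0875) without a Src array. With the replicate number as a block its adjusted p was 0.0512. For S100a9 the same difference was -2.95 ± 0.28 (adjusted p = 4.82e-06, 7.72-fold).

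The spread among the arrays labelled Myc was shared by the subunits. Myc array 1 was lowest and Myc array 3 highest in both genes, and the SD over the group was 1.03 for S100a8 and 0.81 for S100a9, where the other groups had SDs from 0.01 to 0.59 and from 0.02 to 0.33. Myc arrays 1, 2 and 3 are 3 lines per the submitters' design text. The pattern is shown in the plot of S100a9 against S100a8, where the Myc arrays run from near the control arrays towards the Src arrays.

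**Figure D2:**
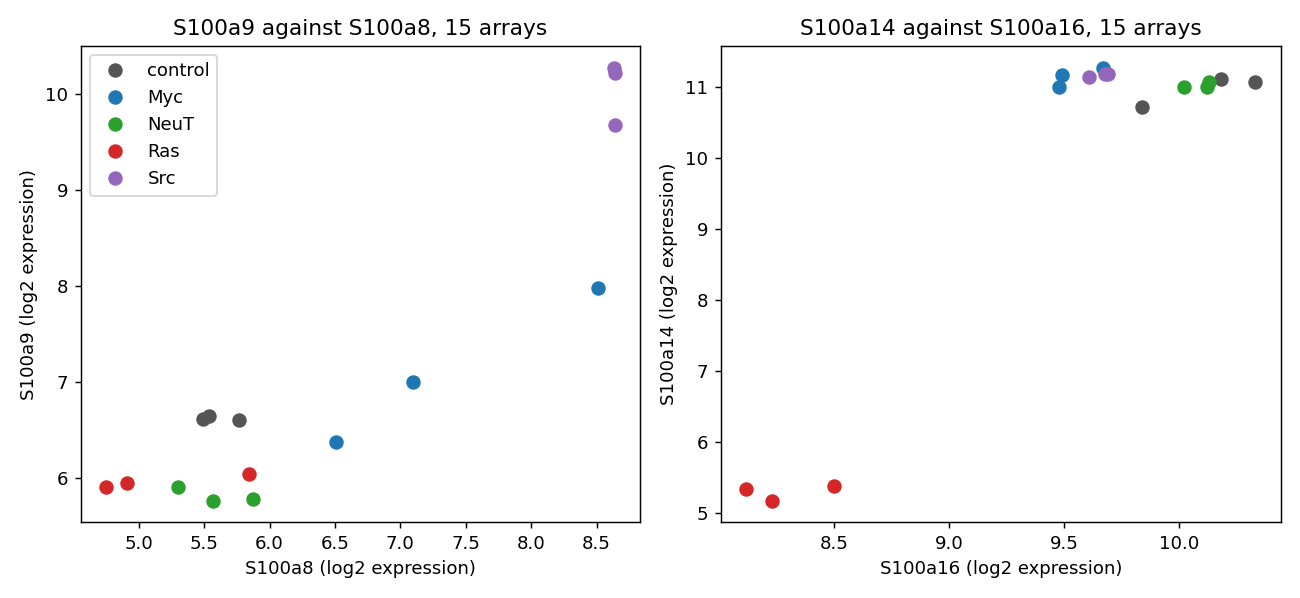
Left, log2 expression of S100a9 (vertical) against S100a8 (horizontal), and right, of S100a14 (vertical) against S100a16 (horizontal), 1 point per array and 1 colour per group. The 3 Src arrays are highest in S100a9, the Myc arrays are spread from 6.37 to 7.98 in S100a9, and the 3 Ras arrays lie apart at low levels of both genes on the right.

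The sequences upstream of this pair are shown since both genes rose in Src. They are from RefSeq, build GRCm38.p6. That of S100a8 is chr3:90668821-90669070, plus strand, with TATAAA in capitals, and that of S100a9 is chr3:90695722-90695971, minus strand, with a C/EBP motif, TTGCNNAA, in capitals.
S100a8: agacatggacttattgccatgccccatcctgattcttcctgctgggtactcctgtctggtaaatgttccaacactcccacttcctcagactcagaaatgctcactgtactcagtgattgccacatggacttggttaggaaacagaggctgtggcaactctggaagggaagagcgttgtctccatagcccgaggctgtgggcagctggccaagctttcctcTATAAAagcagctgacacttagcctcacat
S100a9: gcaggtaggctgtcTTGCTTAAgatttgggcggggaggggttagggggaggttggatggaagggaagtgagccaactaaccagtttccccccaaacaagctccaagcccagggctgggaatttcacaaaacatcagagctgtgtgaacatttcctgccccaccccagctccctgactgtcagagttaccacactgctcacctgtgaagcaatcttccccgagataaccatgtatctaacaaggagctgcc
The TATAAA of S100a8 began 30 bases before its start, that of S100a9 at its start and so outside the letters shown, and the C/EBP motif of S100a9 236 bases before its start. That motif was in 10.8% of all windows and in 1 of the 8 of the members. AP-1, TGANTCA, was in 7.8% of all windows and in 2 of 8 (S100a11 and S100a16), and the E-box, CACGTG, in 7.2% and in 2 of 8 (S100a6 and S100a11). Both strands were searched, and no match in a member's window overlapped another. That no further match was found says only that these letters are not in these windows.

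Markers of neutrophils and other myeloid cells, the other known source of calprotectin, were read beside this pair. Of 18 measured, 1 rose and 0 fell in Src, 0 and 2 changed so in Myc, 0 and 1 in NeuT and 2 and 2 in Ras. These counts were 1 and 1 in Myc and 2 and 1 in Ras without control array 3, with the others as given. The summed level of the 18 lay between 95.5 and 99.0 in control, 95.2 and 96.7 in Myc, 94.6 and 97.0 in NeuT, 96.9 and 100.8 in Ras and 98.7 and 99.8 in Src. In the Src arrays the pan-leukocyte gene Ptprc was at 4.80 ± 0.09, the integrin gene Itgam at 5.08 ± 0.13 and the granule protease gene Elane at 5.79 ± 0.06, against 4.96 ± 0.22, 5.0 ± 0.01 and 5.64 ± 0.09 in control. These markers, picked from the 18, lay under 6.47 in both groups and did not pass (adjusted p = 0.309, 0.586 and 0.206). The means above 6.47 were those of Cd68 in control and of Cd68 and Ltf in Src. Cd68 was at 7.43 ± 0.17 in Src and 7.57 ± 0.16 in control. The part of myeloid cells in the S100a8 and S100a9 values was not tested. The marker that rose in Src was Ltf, which encodes the iron-binding lactoferrin of granules and secretions, at 8.77 ± 0.09 against 5.83 ± 0.15 (log2 fold change 2.94 ± 0.10, adjusted p = 3.59e-10).

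S100a14 and S100a16, adjacent genes of the cluster expressed in epithelia, were low in Ras. S100a14 was at 11.06, 11.11 and 10.72 in the control arrays, 11.16, 10.99 and 11.27 in Myc, 10.99 to 11.07 in NeuT, 5.38, 5.33 and 5.17 in Ras and 11.18, 11.14 and 11.18 in Src. The Ras arrays were more than 5 log2 units below every other array. It fell in Ras (log2 fold change -5.67 ± 0.10, adjusted p = 7.80e-14), and 50.81-fold as a ratio to a level under 6.47, whose size is thus unsure. In Myc, NeuT and Src it was at 0.17 ± 0.10, 0.06 ± 0.10 and 0.21 ± 0.10 (adjusted p = 0.246, 0.763 and 0.16).

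S100a16 was at 10.33, 10.18 and 9.84 in the control arrays, 9.49, 9.48 and 9.67 in Myc, 10.13, 10.12 and 10.02 in NeuT, 8.50, 8.12 and 8.23 in Ras and 9.69, 9.61 and 9.68 in Src. The Ras arrays were below all others, the Myc and Src arrays below all control arrays, and the NeuT arrays within the range of control. It fell in Ras (log2 fold change -1.83 ± 0.12, adjusted p = 4.45e-08, 3.56-fold), in Myc (-0.57 ± 0.12, adjusted p = 0.00208) and in Src (-0.46 ± 0.12, adjusted p = 0.0116, and 0.0563 without control array 1). In NeuT it was at -0.02 ± 0.12 (adjusted p = 0.922). The order was NeuT and control, then Src and Myc, which differed by -0.11 ± 0.12 (adjusted p = 0.59), then Ras.

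Epithelial markers moved with these genes in Ras. Of the 10 prostate epithelial markers measured, 10 fell in Ras at a median log2 change of -5.04, among them the adhesion genes Epcam (-5.23 ± 0.08) and Cdh1 (-5.25 ± 0.13). In Myc 7 fell, in NeuT 6 fell and in Src 5 fell and 2 rose, at medians of -1.07, -0.70 and -0.89. In NeuT 7 fell without control array 3, at a median of -0.86, and the other counts were as given. The summed level of the 10 lay between 102.6 and 106.7 in control, 92.7 and 93.3 in Myc, 88.4 and 90.0 in NeuT, 61.9 and 67.5 in Ras and 98.6 and 100.8 in Src. Its part in the S100 values was not tested. Cdh1, picked from the 10, fell in Myc and Src as well (-1.58 ± 0.13 and -1.22 ± 0.13, adjusted p = 7.84e-07 and 1.21e-05). Its NeuT arrays (10.34, 10.51 and 10.50) were also all below those of control (11.30, 11.33 and 10.86). S100a14 did not pass in these groups. Epcam, also of the 10, read 9.89, 9.75 and 9.85 in Myc and 9.69, 9.78 and 9.53 in control. In NeuT it read 9.33, 9.38 and 9.42, and in Src 9.18, 9.09 and 9.05. How S100a14 relates to either marker was not tested.

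S100a13, which takes part in the release of interleukin 1 alpha and of fibroblast growth factor 1 without a signal peptide, was at 7.90, 7.90 and 8.18 in the control arrays and 9.18, 8.61 and 9.36 in Ras. The Myc arrays were at 7.46, 7.66 and 7.84, the NeuT arrays at 8.43, 8.31 and 8.13 and the Src arrays at 7.86, 7.92 and 7.92. The Ras arrays were above all others, and the Myc arrays below all control arrays. S100a13 rose in Ras (log2 fold change 1.06 ± 0.16, adjusted p = 1.87e-04, 2.08-fold). In Myc, NeuT and Src it was at -0.34, 0.29 and -0.09, each ± 0.16 (adjusted p = 0.149, 0.23 and 0.707). With array weights it passed in Myc (-0.29, adjusted p = 0.048) and NeuT (0.37, adjusted p = 0.00934), and in Myc also without Ras array 2 (-0.34, adjusted p = 0.0383). NeuT was below Ras (-0.76 ± 0.16, adjusted p = 0.00252), and Myc was below NeuT (-0.63 ± 0.16, adjusted p = 0.0166). The latter call was lost without Myc array 1 (-0.54, adjusted p = 0.0806), NeuT array 1 (-0.56, adjusted p = 0.0652) or NeuT array 2 (-0.62, adjusted p = 0.0559). Il1a, the gene of a cargo of this release, rose in Myc (5.32 ± 0.20), NeuT (4.96 ± 0.20) and Src (5.49 ± 0.20) and fell in Ras (-1.19 ± 0.20, adjusted p = 3.26e-04), the group in which S100a13 rose.

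S100a6, S100a10 and S100a11 are the annexin-binding members, and S100a10 is known as the light chain of the annexin A2 complex, which holds its active form without calcium. S100a6 lay between 12.25 and 12.53 in all 15 arrays, with the groups overlapping. Its log2 change against control was -0.05, 0.01, 0.02 and -0.01 in Myc, NeuT, Ras and Src (SE 0.09, adjusted p from 0.73 to 0.969), and the 95% intervals of the 4 changes ran from -0.24 to 0.21. S100a10 was at 11.56, 11.57 and 11.33 in control, 11.45, 11.34 and 11.25 in Myc, 11.70, 11.52 and 11.45 in NeuT, 11.66, 11.42 and 11.69 in Ras and 11.24, 11.19 and 11.24 in Src. All Src arrays were below all others, with the lowest Myc array just above them. Its change in Src was -0.26 ± 0.10 (adjusted p = 0.0654), and -0.34 (adjusted p = 0.0253) without control array 3. Src was below NeuT by 0.34 ± 0.10 (adjusted p = 0.0264) and below Ras by 0.37 ± 0.10 (adjusted p = 0.0127). The first of these was lost without NeuT array 1 (0.26, adjusted p = 0.116), NeuT array 2 (0.35, adjusted p = 0.0562) or any Src array (0.32 to 0.34, adjusted p from 0.0599 to 0.0817), and the second without Ras array 3 (0.32, adjusted p = 0.0521).

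S100a11 was at 12.33, 12.35 and 12.28 in control and 12.00, 12.11 and 12.05 in Myc, and between 12.10 and 12.37 in the other groups. The arrays labelled Myc did not overlap control, and S100a11 fell there (log2 fold change -0.27 ± 0.07, adjusted p = 0.00729, 1.20-fold). Its change was -0.06, -0.12 and 0.01 in NeuT, Ras and Src (adjusted p = 0.626, 0.217 and 0.899). The second probe set of S100a11 read 12.29, 12.31 and 12.30 in control and 11.98, 12.06 and 12.01 in Myc.

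**Figure D3:**
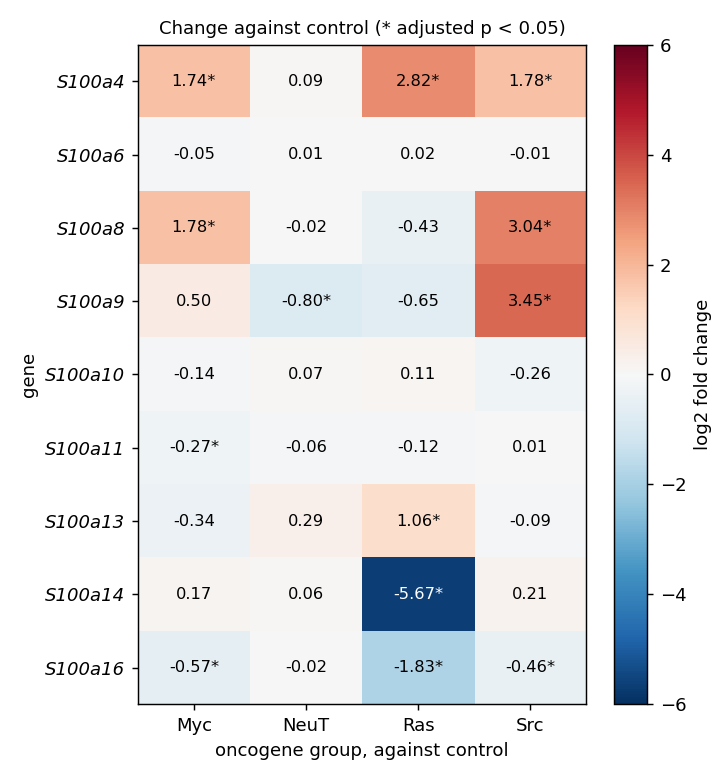
Log2 fold change of each S100 gene (rows) in each oncogene group against control (columns), with red for higher, blue for lower and an asterisk for an adjusted p under 0.05. The values run from -5.67 for S100a14 in Ras to 3.45 for S100a9 in Src.

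The oncogene groups were then compared with each other, so that the differences of means leave out the controls and their culture medium. The control arrays still entered the estimate of the spread shared by all 5 groups, and so the SEs and p-values. By the F test over the 4 oncogene groups, 8 of the 9 members differed, all but S100a6 (adjusted p = 0.893), beside 42.1% of all genes. Of the 8 other S100 genes, 3 differed (S100a1, S100a2 and S100a3). The 9 members were chosen with earlier results of these data known, so their count does not describe the family. The range of the 4 group means had a median of 1.81 (log2) over the members and 0.31 over all genes. The widest were S100a14 (5.87, adjusted p = 5.00e-14), S100a9 (4.25, adjusted p = 8.34e-08), S100a8 (3.47, adjusted p = 1.58e-05) and S100a4 (2.73, adjusted p = 4.52e-08). The calls of S100a10 (0.37, adjusted p = 0.0181) and S100a11 (0.28, adjusted p = 0.0178) were the weakest. S100a10 lost its call without Src array 2 (adjusted p = 0.0535), and S100a11 without Myc array 1 (adjusted p = 0.0765), without Myc array 3 (adjusted p = 0.0522) and with median centring (adjusted p = 0.0663).

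In pairs, Ras and Src differed in 7 of 9, beside 26.2% of all genes. Ras had the higher S100a4, S100a13 and S100a10, and the Ras minus Src difference was -5.87 ± 0.10 in S100a14, -4.10 ± 0.28 in S100a9, -3.47 ± 0.39 in S100a8 and -1.38 ± 0.12 in S100a16. Myc and Ras differed in 6, beside 28.4%, with S100a14 (5.84 ± 0.10), S100a8 (2.21 ± 0.39), S100a16 (1.26 ± 0.12) and S100a9 (1.15 ± 0.28) higher in Myc and S100a4 and S100a13 higher in Ras. Without Myc array 3 the S100a9 difference was 0.72 and still passed. Myc and NeuT differed in 6, beside 14.9%, of which S100a8 (1.79 ± 0.39), S100a4 (1.65 ± 0.15) and S100a9 (1.30 ± 0.28) were higher in Myc and S100a13, S100a16 and S100a11 higher in NeuT. The S100a11 difference (-0.21 ± 0.07, adjusted p = 0.0493) was lost under 16 of 23 alternatives (adjusted p from 0.0162 to 0.168), among them the removal of any control, Myc, NeuT or Src array or of Ras array 3.

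NeuT and Src differed in 5, beside 20.2%, with S100a9 (-4.25 ± 0.28, adjusted p = 1.12e-07), S100a8 (-3.06 ± 0.39) and S100a4 (-1.69 ± 0.15) lower in NeuT and S100a16 (0.43 ± 0.12) and S100a10 higher. The S100a16 difference was lost without NeuT array 1, NeuT array 2 or Src array 2 (0.41, 0.42 and 0.41, adjusted p = 0.0614, 0.0612 and 0.0676) and with quantile normalization (0.34, adjusted p = 0.0639), and 3 members passed without each of those arrays. NeuT and Ras differed in 4, beside 28.1%, namely S100a14, S100a4, S100a16 and S100a13. Myc and Src differed in 3, beside 18.9%, namely S100a9, S100a8 and S100a11.

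Chromosome 3 holds all 9 members, in the order S100a13, S100a14, S100a16, S100a4, S100a6, S100a8, S100a9, S100a11 and S100a10, and 50 further genes with a probe set of their own lie between them by the order in RefSeq (GRCm38.p6). Some neighbours moved the same way and others did not. In Ras, S100a13 rose, the next 4 measured genes (S100a14, S100a16, S100a3 and S100a2) fell, S100a4 rose, and S100a6 did not pass. In Src, the neighbours S100a3, S100a2 and S100a4 rose, as did S100a8 and S100a9. Of the 50 genes between the members, 4 rose and 8 fell in Myc, 2 and 10 in NeuT, 2 and 10 in Ras and 10 and 8 in Src, at median log2 changes of 0.01, -0.09, -0.04 and 0.09. Of all genes, 15.9% rose and 12.7% fell in Myc and 15.2% and 11.6% in NeuT. In Ras these shares were 13.3% and 14.2%, and in Src 14.2% and 12.2%. Without control array 3 the counts were 3 and 9 in Myc, 1 and 10 in NeuT, 2 and 11 in Ras and 9 and 8 in Src.

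**Figure D4:**
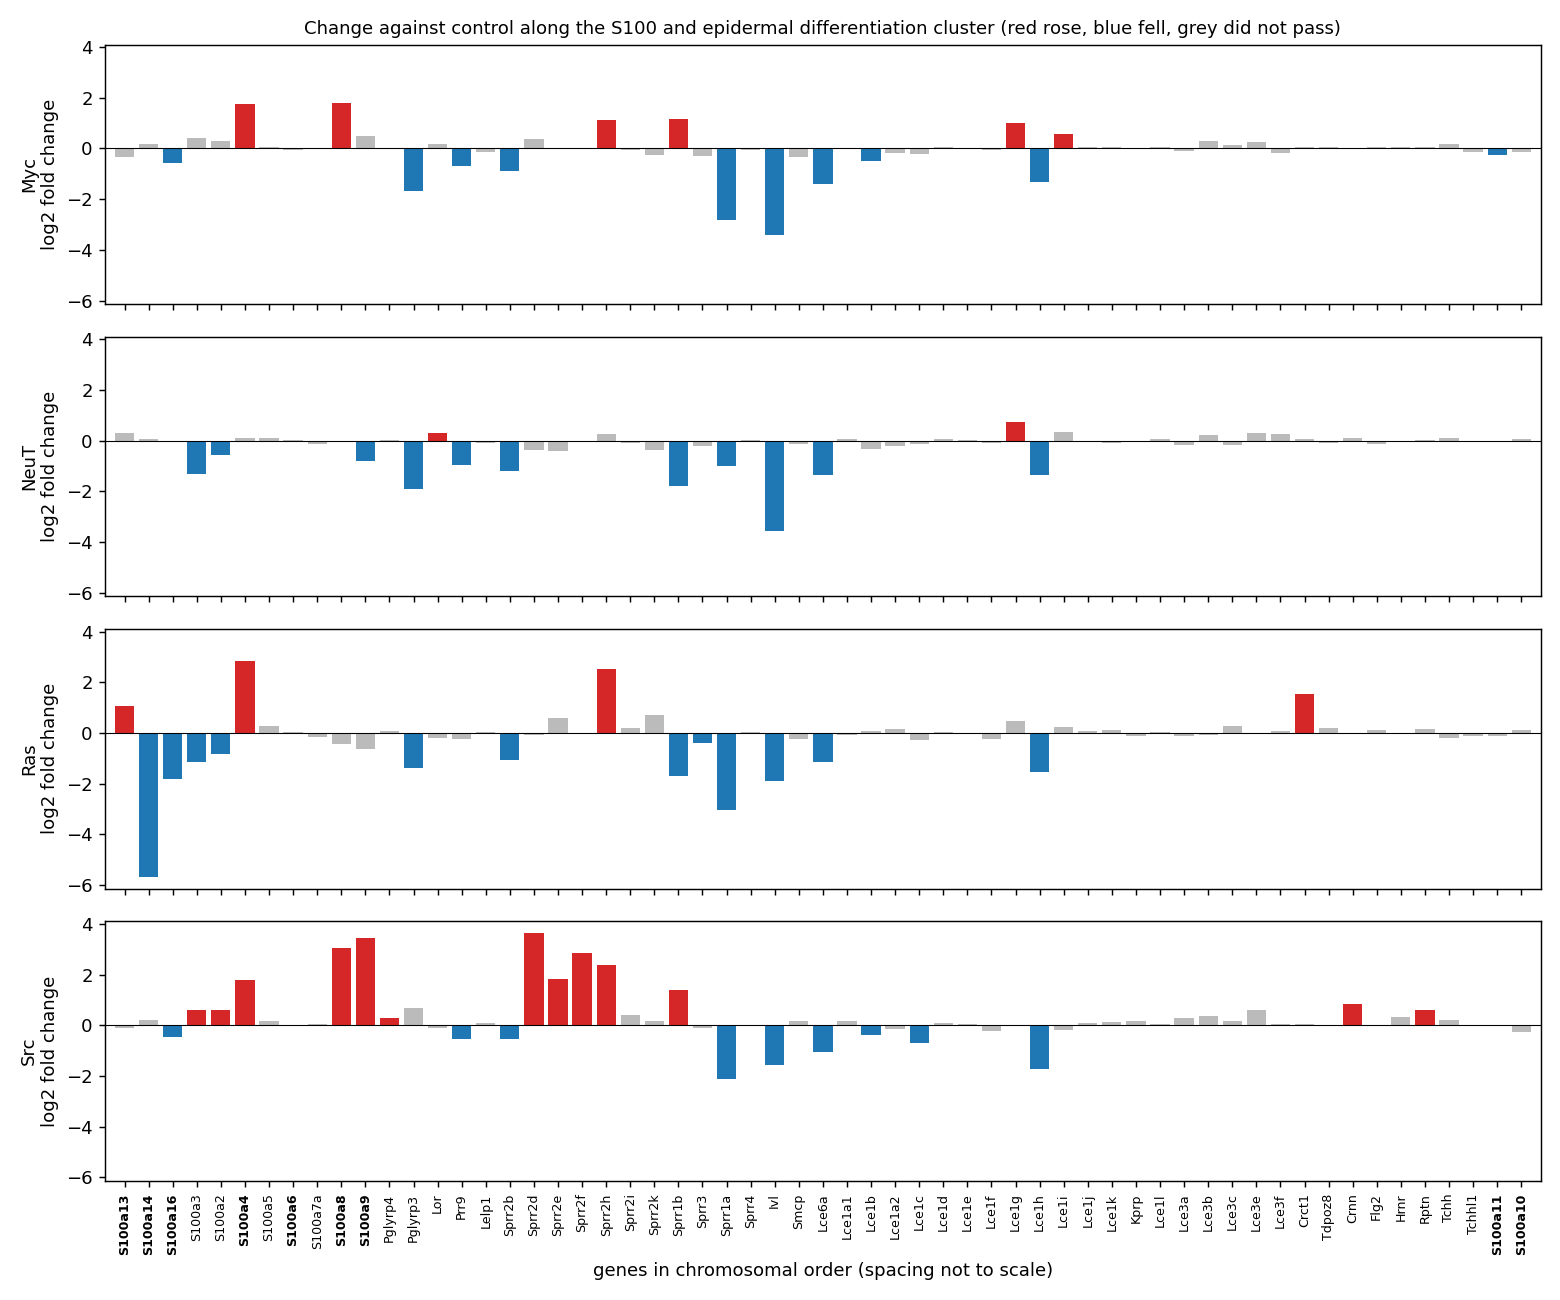
Log2 fold change against control (vertical axis, 1 panel per oncogene group) of the 59 measured genes from S100a13 to S100a10 in chromosomal order (horizontal axis, members in bold), red for a gene that rose, blue for one that fell and grey for one that did not pass. In the Src panel Sprr2d (3.63), S100a9 (3.45) and S100a8 (3.04) are the highest bars, and in the Ras panel S100a14 (-5.67) is the lowest.

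The cornified envelope genes, most of them in that stretch and some elsewhere, were read as a list. Of 32 measured, 12 rose and 5 fell in Src, 3 and 6 changed so in Myc, 1 and 8 in NeuT and 1 and 7 in Ras, at medians of 0.20, -0.03, -0.11 and -0.06. The shares of all genes were 14.2% and 12.2% in Src and 15.9% and 12.7% in Myc. They were 15.2% and 11.6% in NeuT and 13.3% and 14.2% in Ras. Without control array 3 the counts were 11 and 5 in Src, 3 and 7 in Myc, 0 and 8 in NeuT and 1 and 8 in Ras. The genes named here encode proline-rich and late proteins of the envelope. Sprr2d was at 6.0, 5.99 and 5.99 in control and 9.48, 9.99 and 9.40 in Src (log2 fold change 3.63 ± 0.27, adjusted p = 3.16e-07), and at 5.90, 6.03 and 7.18 in Myc, where array 3 was highest as for S100a8 and S100a9. Sprr2f rose in Src (2.84 ± 0.17, adjusted p = 3.58e-08) and was at -0.01, -0.02 and -0.05 in Myc, NeuT and Ras. Sprr1b rose in Src (1.39 ± 0.26) and Myc (1.18 ± 0.26) and fell in NeuT (-1.77 ± 0.26) and Ras (-1.71 ± 0.26). Lce1h, of the late envelope, fell in all 4 groups (-1.33, -1.37, -1.54 and -1.73 in Myc, NeuT, Ras and Src). Involucrin (Ivl) and Sprr1a, named after their values were seen, fell in Src (-1.57 and -2.11), so the envelope genes did not share a direction there. Genes of the Sprr2 and Lce families are near copies of each other, and their probe sets may share signal.

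The genes whose pattern lay closest to each member were found by the mean absolute difference of mean-centred log2 values over the 15 arrays, among the genes whose group means spanned at least 1 log2 unit (3318 for members that did so themselves). For S100a9 these were Sprr2d (0.33) and Dmkn (0.39), the latter a secreted protein of the upper epidermis. For S100a8 they were Stra6 (0.57), a retinol transporter, and Fjx1 (0.57). For S100a14 they were the simple epithelial keratin Krt7 (0.25) and Bst1 (0.31), for S100a16 Osbpl3 (0.14) and Plk2 (0.14), for S100a4 Mgst2 (0.29) and the stromelysin Mmp10 (0.38), and for S100a13 Pam (0.16) and Ern1 (0.17). Since S100a6, S100a10 and S100a11 spanned only 0.08, 0.37 and 0.28 themselves, their closest genes (Sh3bgrl3 and Zfp407, Asph and Cers2, Baz2b and Tcf7l2) say little. Krt7 was at 11.80 to 12.24 in the 12 arrays of control, Myc, NeuT and Src, and at 5.75 to 5.77 in Ras (log2 fold change -6.32 ± 0.08, adjusted p = 4.22e-15).

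The 8 other S100 genes with a probe set were S100a1, S100a2, S100a3, S100a5, S100a7a, S100b, S100g and S100z. Of these, 0 rose and 2 fell in Myc, 0 and 3 in NeuT, 0 and 2 in Ras and 2 and 2 in Src, and the counts were 1 and 3 in Ras and 1 and 2 in Src without control array 3. S100a3, a cysteine-rich protein of hair cuticle, was at 8.16 ± 0.37 in control and 8.76 ± 0.14 in Src, and fell in NeuT (-1.33 ± 0.17, adjusted p = 4.52e-05) and Ras (-1.13 ± 0.17, adjusted p = 1.64e-04). It rose in Src (0.59 ± 0.17, adjusted p = 0.0208), a call lost without control array 3 (0.40, adjusted p = 0.0723). S100a2 fell in NeuT (-0.57 ± 0.15) and Ras (-0.84 ± 0.15) and rose in Src (0.61 ± 0.15, adjusted p = 0.00925). S100g, the vitamin D-dependent calbindin of intestine and kidney, was at 7.42, 7.26 and 11.80 in the control arrays, and S100a1 at 7.48, 7.37 and 9.41, so that control array 3 was high in both, as in the kidney tubule markers. S100g was at -2.40, -2.39, -2.16 and -2.48 against control in Myc, NeuT, Ras and Src, and at -0.91, -0.91, -0.68 and -0.99 without that array (adjusted p = 1.52e-04, 1.83e-04, 0.00195 and 1.03e-04). S100a1 was at -1.85, -1.02, -0.29 and -1.17, and without that array at -1.19, -0.36, 0.37 and -0.51, so that in Ras it changed sign and passed (adjusted p = 0.0412). S100a5, S100a7a, S100b and S100z did not pass in any group.

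Binding partners and receptors of S100 proteins were read as gene lists, beside the same shares of all genes. Of 19 annexins and other binding partners measured, 2 rose and 10 fell in Myc, 3 and 4 in NeuT, 4 and 8 in Ras and 2 and 12 in Src, at medians of -0.37, -0.08, -0.23 and -0.35, and without control array 3 the counts were 1 and 11 in Myc, 2 and 5 in NeuT, 4 and 8 in Ras and 2 and 12 in Src. The membrane-binding annexin gene Anxa6 fell in Ras (-2.03 ± 0.15, adjusted p = 2.09e-07) and Src (-0.80 ± 0.15) and rose in NeuT (0.51 ± 0.15, adjusted p = 0.023), a call lost without control array 3 (0.33, adjusted p = 0.0914). Ezr, of the membrane-cytoskeleton linker ezrin, rose in NeuT (0.57 ± 0.09) and fell in Myc, Ras and Src (-0.67, -0.83 and -0.32), and the tropomyosin gene Tpm1 fell in all 4 (-1.04, -0.57, -1.26 and -1.09 in Myc, NeuT, Ras and Src).

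Of 14 receptor and signalling genes for extracellular S100 proteins, 1 rose and 4 fell in Myc, 4 and 3 in NeuT, 4 and 4 in Ras and 2 and 2 in Src, at medians of -0.48, -0.10, -0.02 and -0.06. Without control array 3 the counts were 1 and 7 in Myc, 2 and 3 in NeuT, 4 and 5 in Ras and 1 and 2 in Src. Tlr4, the innate receptor that calprotectin can engage, rose in NeuT (1.06 ± 0.13) and Ras (1.29 ± 0.13) and fell in Myc (-0.71 ± 0.13), and was at -0.19 ± 0.13 (adjusted p = 0.303) in Src. Its co-receptor gene Ly96 rose in Ras (1.44 ± 0.18). Tnfaip3, a feedback inhibitor of NF-kB, rose in NeuT (0.66 ± 0.17) and fell in Ras (-1.25 ± 0.17). In Myc both Tnfaip3 (-0.67, adjusted p = 0.00171, from -0.46 and 0.0532) and Ly96 (-0.55, adjusted p = 0.0489, from -0.49 and 0.056) fell without control array 3.

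Of 8 plasminogen system genes around the S100a10 complex, 0 rose and 3 fell in Myc, 0 and 2 in NeuT, 3 and 2 in Ras and 1 and 3 in Src (0 and 3 without control array 3), at medians of 0.00, 0.04, -0.04 and -0.28. Plat, of tissue plasminogen activator, rose in Ras (0.50 ± 0.16, adjusted p = 0.0317) and fell in Myc, NeuT and Src (-0.59, -0.96 and -0.99). The urokinase receptor gene Plaur rose in Ras (0.58 ± 0.14) and fell in Myc and Src (-0.51 and -0.57), while Plau, of urokinase, fell in Ras (-1.83 ± 0.25).

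Among 20 inducers and regulators of calprotectin, 6 rose and 5 fell in Myc, 6 and 6 in NeuT, 5 and 8 in Ras and 7 and 1 in Src, at medians of -0.13, -0.06, -0.05 and 0.19. Without control array 3 the counts were 5 and 4 in Myc, 6 and 7 in NeuT, 4 and 8 in Ras and 7 and 2 in Src. Il1a, given above, was high in Myc (11.04, 11.15 and 11.44), NeuT (10.86, 10.86 and 10.81) and Src (11.43, 11.31 and 11.37). In NeuT S100a8 was at -0.02 against control and S100a9 at -0.80, a call lost under 15 of 23 alternatives. The part of Il1a in the S100a8 and S100a9 values was not tested. The AP-1 gene Fosl1 rose in all 4 groups (1.56, 2.42, 1.62 and 1.66 in Myc, NeuT, Ras and Src), and Jun fell in all 4 (-1.23, -0.47, -0.55 and -1.48).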

How the data were processed

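RNA of 15 samples was amplified, biotin-labelled and hybridised to 1-colour Affymetrix gene arrays, 1 array per sample. The deposited values are log2 expression, normalized by the authors with RMA in Affymetrix Expression Console 1.1, per the submitters' processing notes. Background and detection values were not used here, and scanner files were not analysed here. Of 35556 probe sets, 21789 have 1 gene symbol in the platform annotation, 1621 several and 12146 none. The probe set with the higher mean stood for each of 999 genes with several, which left 19938 genes. Groups came from the labels. limma 3.58.1 in R 4.3.3 fitted 5 group means to all 15 arrays, with moderated variances, and p-values were adjusted by Benjamini-Hochberg over all genes in each contrast. The script was tested on simulated data. The 4 contrasts with control, 6 pairs and an F test among the oncogene groups were run.

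Replicate numbers did not pair the samples: deviations from group means correlated between -0.08 and 0.12 over 30 pairs, with 2 over 0.1. The block fit is therefore an alternative. The other alternatives were scaling, a filter on dim genes, averaged probe sets, variance models, array weights, fewer groups, a fold minimum and each array left out.

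The members and the gene and marker lists were chosen with earlier results of these data known. Named genes are all members and other S100 genes, from each list the 3 genes with the smallest F-test p over the 5 groups, and the 2 genes closest in pattern to each member; others are named as picked later or as markers. Promoter windows came from RefSeq, GRCm38.p6. Figures were drawn with matplotlib 3.10.9.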

Additional observations from a re-analysis of the deposited data

Results flagged for a closer look

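S100a9 moved in opposite directions in the NeuT and the Src arrays, and the difference was tested as the contrast of those groups. It was at -0.80 (log2) against control in NeuT and at 3.45 in Src, and NeuT was below Src by -4.25 ± 0.28 (limma adjusted p = 1.12e-07), with all 3 NeuT arrays below all 3 control arrays and all 3 Src arrays above them. The contrasts share the control arrays, and the fall in NeuT alone lost its call under 15 of 23 alternatives.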

How the results depend on the processing

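Of 99 gene-by-contrast results for the members, 52 were called, of which 42 kept direction and call under all 23 alternatives and 10 lost the call under at least 1. Of the 47 not called, 9 gained a call under at least 1: S100a9 in Myc and Ras, S100a10 in Src, S100a11 in Ras and S100a13 in Myc and NeuT, all against control, S100a10 and S100a11 for Myc against Ras, and S100a13 for NeuT against Src (adjusted p = 0.00952 with only those groups, 0.0153 with array weights and 0.028 without Ras array 2). No called result changed sign under those alternatives. Counts of changed members moved with a 2-fold minimum from 4 to 2 (Myc against control), 1 to 0 (NeuT against control), 6 to 3 (Myc against NeuT) and 5 to 3 (NeuT against Src). They moved from 4 to 3 (Src against control and NeuT against Ras), 3 to 2 (Myc against Src) and 7 to 6 (Ras against Src). In the F test, with the range of the 4 group means as the fold, the count moved from 8 to 6. NeuT against control also went to 0 with median centring, quantile normalization or the trended robust variance and to 2 with array weights, and lay between 0 and 1 with single arrays left out. NeuT against Src lay between 3 and 6. With the replicate number as a block, 5 members differed between Myc and NeuT and 2 between Myc and Src, where the calls of S100a11 (adjusted p = 0.0734) and S100a8 (adjusted p = 0.0512) were lost, and no other call changed. The causes were not tested.

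Uncalled values near 0 changed sign. Against control in NeuT, array weights gave -0.05 for S100a4, -0.03 for S100a6, 0.01 for S100a8, -0.01 for S100a10 and -0.05 for S100a14, quantile normalization -0.02 for S100a6 and 0.03 for S100a8, and median centring 0.03 for S100a8 and S100a16. S100a6 gave 0 in Myc with median centring and -0.03 in Ras with quantile normalization, and S100a11 in Src gave -0.07 with quantile normalization and 0 with array weights. For Myc against Src, median centring gave 0.01 for S100a4, S100a6 and S100a14 and quantile normalization 0.02 for S100a6. Quantile normalization gave 0 for S100a6 (NeuT against Ras) and S100a11 (NeuT against Src). With single arrays left out, values against control in NeuT ran from -0.07 to 0.21 (S100a4), -0.06 to 0.08 (S100a6), -0.16 to 0.12 (S100a8), 0 to 0.13 (S100a10), -0.06 to 0.13 (S100a14) and -0.16 to 0.08 (S100a16). S100a6 ran from -0.12 to 0.02 in Myc, -0.04 to 0.10 in Ras and -0.08 to 0.05 in Src, and in pairs from -0.09 to 0.04 (NeuT against Ras), -0.02 to 0.05 (NeuT against Src) and -0.02 to 0.11 (Ras against Src). In Src against control S100a11 ran from -0.01 to 0.03 and S100a13 from -0.14 to 0. For Myc against Src S100a4 ran from -0.16 to 0.05 and S100a14 from -0.10 to 0.04, and for NeuT against Ras S100a10 from -0.12 to 0.02. The 3 arrays per group and the unmeasured background limit what small changes, and levels under 6.47, can show.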

Other observations

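Ly6g, a neutrophil surface marker, was at 8.68, 8.31 and 6.89 in the Ras arrays and between 4.70 and 5.36 in the 12 others (log2 fold change against control 2.97, limma adjusted p = 1.06e-05), while S100a8 and S100a9 did not rise there. Ly6g was picked from the 18 neutrophil and myeloid markers after its values were seen. Of the 18, 2 rose and 2 fell in Ras, and 2 rose and 1 fell without control array 3. The other marker that rose was Cxcr2, at 4.81 ± 0.69 in Ras and 3.75 ± 0.13 in control. Those that fell were Ltf (-0.6) and Lyz2 (-0.66). In Ras the means of Ly6g and Cd68 lay above 6.47 and those of the other 16 below. Whether the Ras arrays held neutrophils was not tested.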
